A study of Mus musculus with 18 samples.

Results

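The Eph receptors, their ephrin ligands, the semaphorins and the plexins are the 4 families of cell guidance genes described here. Members were all genes of the deposited table whose symbols follow the naming of these families (Epha, Ephb, Efna, Efnb, Sema3 to Sema7 and Plxna to Plxnd), 51 of 20321 genes. They comprised 14 Eph receptors, 8 ephrins, 20 semaphorins and 9 plexins. RNA was sequenced from embryoid bodies (EBs, aggregates of differentiating cells) made from GFP-Bry mouse embryonic stem cells, in which GFP reports the mesoderm gene Brachyury (T). The cells were left to reaggregate over 24 h in the presence of IWR-1 (10 µM), which inhibits canonical Wnt signalling, or of DMSO, its vehicle. They were either unsorted or had been sorted as GFP+ cells positive for Endoglin and for Flk-1 (E+F+) or positive for Endoglin and negative for Flk-1 (E+F-). The 6 groups (E+F+ DMSO, E+F+ IWR-1, E+F- DMSO, E+F- IWR-1, unsorted DMSO and unsorted IWR-1) held 3 libraries each, which the labels number as Sets 1, 2 and 3. All cells derive from 1 reporter ES cell line, and the unsorted groups also hold the cells that neither gate collected.

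Eph receptors are the receptor tyrosine kinases that bind ephrins on neighbouring cells. Ephrin-A ligands are held in the membrane by a lipid anchor and ephrin-B ligands span it, and both partners can signal after contact, mostly to repel cells and sharpen tissue boundaries. Semaphorins are secreted (class 3) or membrane-bound (classes 4 to 7) ligands that signal through plexins, with neuropilins as co-receptors for most of class 3. In the early embryo these families act in gastrulation, in somite borders and in the separation of arteries from veins, where EphB4 and ephrin-B2 are the best known pair.

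The annotation (GENCODE M21, GRCm38) placed 3 of the 5 ephrin-A genes side by side on the minus strand of chromosome 3. Efna1 lies at chr3:89271733-89281142, Efna3 at chr3:89313899-89322965 and Efna4 at chr3:89333390-89338028, with 32757 and 10425 bases between neighbours. Efna3 and Efna4 were both lower in E+F+ than in E+F-, while the Efna1 levels overlapped, as the levels below show. Epha1, at chr6:42358487-42373268, Ephb4, at chr5:137350109-137378669, and Efnb1, at chrX:99136130-99148991, are the other Eph and ephrin genes that the comparisons turn on. Sema5a lies at chr15:32244810-32696341, Sema4c at chr1:36548639-36558349, Sema6c at chr3:95160457-95174024 and Plxnb1 at chr9:109095389-109119917.

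RefSeq promoter windows (GRCm38.p6, 250 bases before to 50 after a gene's start) were found for 45 of the 51 members, 59 windows in all. They were rich in CpG, with a median of 20 CpG dinucleotides and 64% GC, against 7 and 52.7% over all 32851 windows. The T-box motif GGTGTGA, searched on both strands, was in 3 of the 59 windows (5.08%, against 3.98% of all windows), those of Efna1, Sema4a and Sema6c. The TCF/LEF core CTTTGAT was in 0 of 59 (3.73% of all windows) and the GATA motif AGATAA in 2 of 59, Efna4 and Epha3 (11.2% of all windows). No window held more than 1 of the 3 motifs. The windows with the T-box letters are shown for Efna1 (chr3:89280902-89281201, minus strand) and Sema6c (chr3:95164089-95164388, plus strand), both described below, and beside them that of Epha1 (chr6:42373219-42373518, minus strand), the receptor with the largest difference between the sorted populations, which holds none of the motifs. Capitals mark the match, which in both genes is the reverse complement of GGTGTGA.
Efna1: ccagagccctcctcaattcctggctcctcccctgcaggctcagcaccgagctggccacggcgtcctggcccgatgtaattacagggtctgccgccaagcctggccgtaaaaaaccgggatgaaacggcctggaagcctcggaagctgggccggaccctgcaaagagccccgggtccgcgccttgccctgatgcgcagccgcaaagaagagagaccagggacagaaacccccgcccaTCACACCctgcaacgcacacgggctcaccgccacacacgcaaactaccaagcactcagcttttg
Sema6c: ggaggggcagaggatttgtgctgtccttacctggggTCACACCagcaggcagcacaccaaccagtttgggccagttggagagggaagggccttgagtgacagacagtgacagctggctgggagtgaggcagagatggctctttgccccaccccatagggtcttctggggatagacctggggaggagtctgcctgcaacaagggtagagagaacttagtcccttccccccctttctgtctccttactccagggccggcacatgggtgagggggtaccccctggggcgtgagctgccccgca
Epha1: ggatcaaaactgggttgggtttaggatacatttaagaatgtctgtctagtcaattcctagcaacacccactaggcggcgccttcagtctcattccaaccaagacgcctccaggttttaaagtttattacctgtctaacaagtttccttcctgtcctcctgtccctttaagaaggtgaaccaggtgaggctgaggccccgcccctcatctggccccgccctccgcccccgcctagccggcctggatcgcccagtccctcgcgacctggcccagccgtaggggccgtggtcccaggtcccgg
A match of letters is a description of the window and not a binding site. Sema6c has a further window at an earlier start, and Efna1 one at a later start, both without a match.

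Library totals ran from 19725500 to 26649631 expected counts, and the members took 0.0853% to 0.164% of them. The sorted populations differed in their marker genes. The summed level of 9 blood genes was 792 to 9481 TPM (transcript abundance scaled for length and depth, a unit in which genes can be compared) in the 6 E+F+ libraries and 15.2 to 590 in the 6 E+F- libraries, and that of 9 primitive streak and presomitic genes was 2.84 to 7.5 in E+F+ and 776 to 1583 in E+F-. The summed level of 7 endothelial genes was 24.1 to 42.9 TPM in E+F+ DMSO and 1.67 to 8.09 in E+F- DMSO, with 5 of the 6 tested higher in E+F+, and that of 7 pluripotency genes was 15.7 to 28.9 and 94.2 to 508 TPM, with 6 of 7 lower in E+F+. Msgn1, which marks presomitic mesoderm, was listed at 0 in all 6 E+F+ libraries, and 8 neural genes summed to no more than 2.87 TPM in the DMSO libraries of both sorted populations. The 2 E+F- libraries of Set 3 stood apart from the other E+F- libraries on the second principal component (-22.07 and -45.87 against 40.19 to 47.59), which carried 17.3% of the variance. They also had the most pluripotency RNA within their groups (508 and 1287 TPM over 7 genes, against 94.2 to 627 in the other E+F- libraries) and the most blood RNA (176 and 590 TPM against 15.2 to 33.1). Results that rest on them are given with and without them. In bulk samples such as these, fewer cells of a type and less RNA per cell cannot be told apart.

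The members spanned a wide range of levels. Over the 18 libraries, 16 had a mean of at least 10 TPM, 20 had 1 to 10 TPM and 15 were below 1 TPM. The most abundant Eph receptor was Ephb4 (mean 49.4 TPM, 34 to 78.1 over the libraries), the most abundant ephrin Efnb1 (35.8 TPM), the most abundant semaphorin Sema4c (23.8 TPM) and the most abundant plexin Plxnb2 (48.4 TPM). Of the 51 members, 46 passed the filter on low counts. Epha3, Epha5, Epha6, Epha8 and Plxnb3 did not, and reached at most 0.29 TPM in any library. Epha6 and Plxnb3, a plexin that binds Sema5a, were each listed at 0 in 13 of the 18 libraries.

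**Figure D1:**
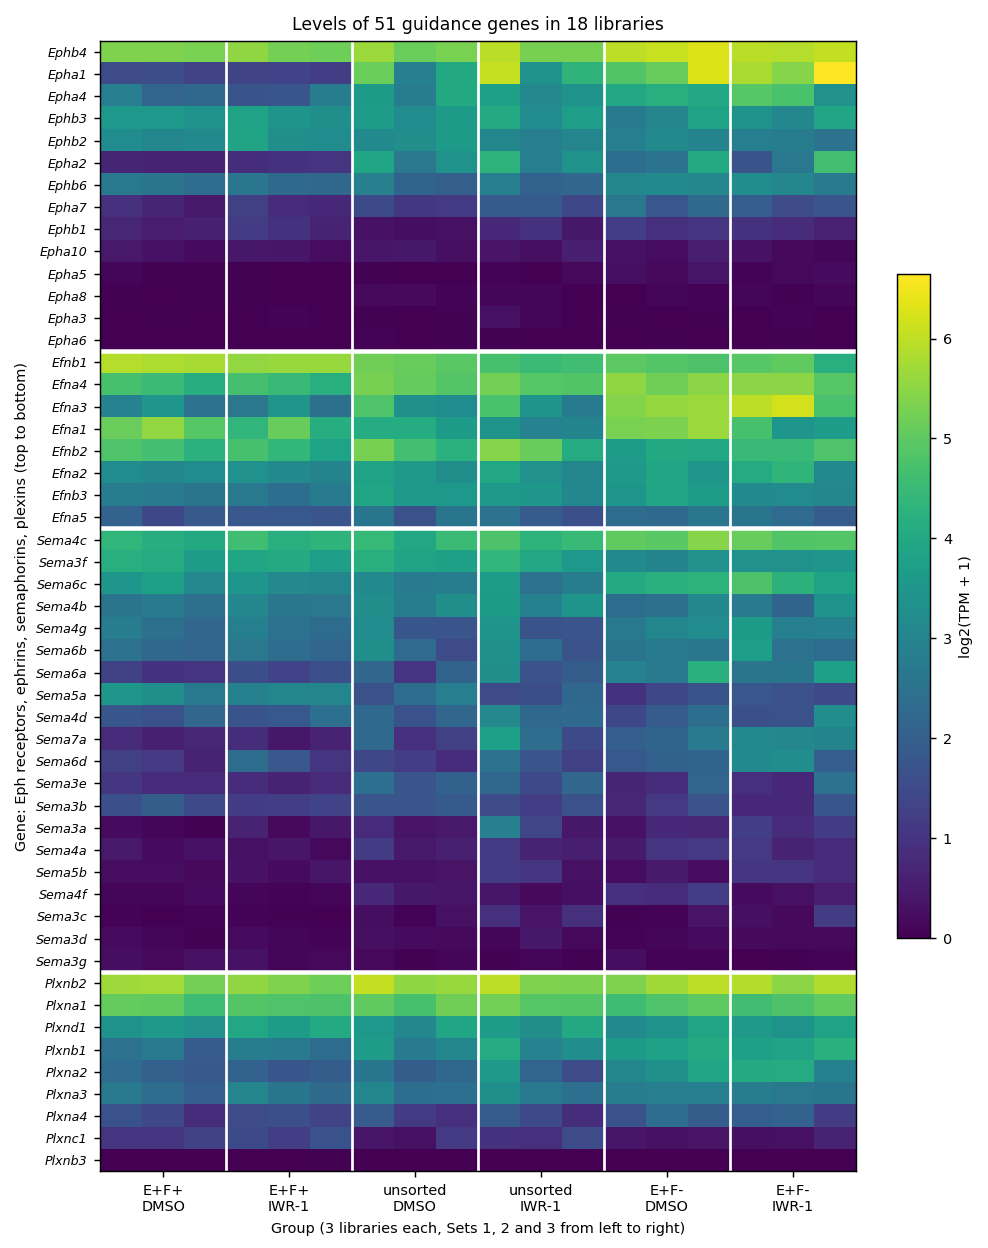
Level of each of the 51 members (rows, grouped by family and ordered by mean level) in each of the 18 libraries (columns, 3 per group), as log2(TPM + 1) in colour. Ephb4, Efnb1, Sema4c and Plxnb2 head their families, and the Epha1, Epha2 and Efna3 rows are each darker in E+F+ than in E+F-.

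The balance of A-type and B-type genes differed between the sorted populations. Under DMSO, the EphA receptors made up 13.3%, 9.91% and 9.72% of Eph receptor TPM in the E+F+ libraries (Sets 1, 2 and 3) and 38.5%, 38.7% and 51.4% in the E+F- libraries. The ephrin-A ligands made up 45.8%, 50.7% and 44.5% of ephrin TPM in E+F+ and 73%, 70.6% and 74.9% in E+F-. Neither share overlapped between the populations, and both are descriptions with no test. With DMSO, the summed EphA level was 7.85 ± 1.88 TPM (SD, n = 3) for E+F+ and 74.4 ± 33.5 for E+F-, while the summed EphB level was 63.3 ± 2.28 and 94 ± 11.8. Among the Eph and ephrin subfamilies, only ephrin-B was more abundant in E+F+, with a sum of 84.8 ± 7.63 TPM against 54.4 ± 3.19 in E+F-. Within it, Efnb3 ran the other way (mean 5.52 TPM in E+F+ and 12.2 in E+F-). The members of a sum share their libraries and depth.

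The first comparison asked how the sorted populations differ after culture with DMSO alone. Of the 46 members that were tested, 19 gave a difference at an adjusted p under 0.05 (edgeR quasi-likelihood test, Benjamini-Hochberg over all 13826 genes), where 26.6% of all genes did. Higher in E+F+ were 4 members (Efnb1, Sema3f, Sema5a and Plxnc1, where 12.8% of all genes were higher), and lower were 15 (13.8% of all genes). The lower members were Epha1, Epha2, Epha4, Epha7, Ephb4, Efna3, Efna4, Efnb3, Sema4a, Sema4c, Sema4f, Sema6a, Sema7a, Plxna2 and Plxnb1. The median log2 difference (E+F+ minus E+F-) was -0.606 over the members tested and -0.01 over all genes tested. By family, 5 of 10 Eph receptors, 4 of 8 ephrins, 7 of 20 semaphorins and 3 of 8 plexins passed. All log2 differences in the following are from this fit, with their standard errors (SE), and all levels are TPM in Sets 1, 2 and 3.

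Among the Eph receptors, all 5 that passed were lower in E+F+. Epha1, the first Eph receptor to be described, was at 1.9, 1.98 and 1.58 TPM in E+F+ DMSO and at 27.5, 33.1 and 77.5 TPM in E+F- DMSO. The groups were far apart, and the Set 3 library of E+F- was the highest. The log2 difference was -4.50 ± 0.69 (SE, edgeR adjusted p = 0.000335). Epha2, a receptor of epithelial cells and of the primitive streak, was at 0.62, 0.58 and 0.59 TPM in E+F+ and at 4.28, 4.79 and 15.9 TPM in E+F-, again highest in Set 3. Its log2 difference was -3.61 ± 0.73 (edgeR adjusted p = 0.00227). Ephb4, the receptor that marks veins later in development, was at 40.2, 40.4 and 38.9 TPM in E+F+ and at 62.7, 67.5 and 78.1 TPM in E+F-. This most abundant receptor of all 6 groups but E+F- IWR-1 thus differed far less than the EphA genes, by -0.68 ± 0.14 on the log2 scale (edgeR adjusted p = 0.00297), yet its groups did not overlap. The other receptors that passed were Epha4 (4.47 TPM in E+F+ and 15.6 in E+F-, mean of 3), which acts at somite borders, and Epha7 (0.63 and 3.88 TPM). Ephb2 and Ephb3, both receptors of ephrin-B ligands, did not pass, at 7.85 ± 0.495 and 10.2 ± 0.725 TPM (SD, n = 3) in E+F+ against 7.08 ± 0.835 and 8.8 ± 4.14 in E+F-.

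Among the ephrins, the B-type ligands did not move together. Efnb1, a transmembrane ligand encoded on the X chromosome, was at 58.9, 55.8 and 54 TPM in E+F+ DMSO and at 30.2, 28.2 and 26.6 TPM in E+F- DMSO. Every E+F+ library was above every E+F- library, and the log2 difference was 1.10 ± 0.19 (edgeR adjusted p = 0.000824). Efnb3, a B-type ligand best known from the midline of the nervous system, ran the other way, at 6.03, 5.66 and 4.87 TPM in E+F+ and 10.5, 14.4 and 11.7 TPM in E+F- (log2 difference -1.03 ± 0.19, edgeR adjusted p = 0.00108). Efnb2, the EphB4 ligand that marks arteries, was at 27, 24.3 and 17.8 TPM in E+F+ and 11.5, 15.5 and 14.8 in E+F-. The groups did not overlap, but the log2 difference of 0.84 ± 0.32 did not pass (edgeR adjusted p = 0.064).

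The neighbouring ephrin-A genes of chromosome 3 were not all alike, and no test compared them with each other. Efna3 was at 6.7, 10.3 and 4.62 TPM in E+F+ and at 41.6, 47.1 and 49.4 TPM in E+F-. Its groups were well separated, with a log2 difference of -2.56 ± 0.58 (edgeR adjusted p = 0.00504). Efna4 differed less, at 21.2 ± 4.36 TPM (SD, n = 3) in E+F+ and 41.9 ± 5.5 in E+F-, a log2 difference of -0.87 ± 0.21 (edgeR adjusted p = 0.00767). Efna1, a ligand of EphA2, was at 34.1, 46.8 and 29.4 TPM in E+F+ and 38.7, 39.2 and 49.4 TPM in E+F-. These groups overlapped, and the 95% interval of the log2 difference ran from -0.79 to 0.62.

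**Figure D2:**
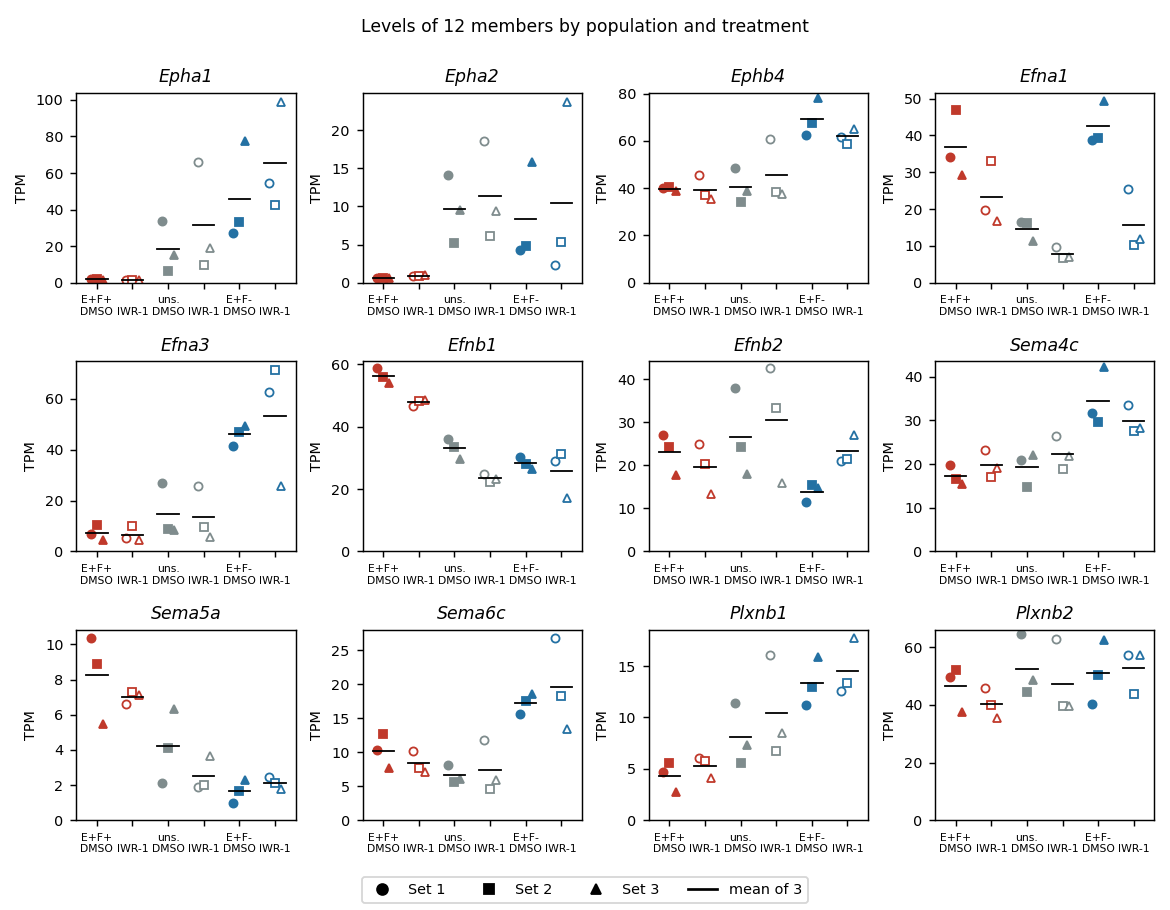
TPM of 12 members (1 panel each, linear axis from 0) in the 6 groups, with unsorted written as uns.; each point is 1 library, its shape the Set, filled for DMSO and open for IWR-1, and the line is the mean of 3. Epha1, Epha2, Efna3 and Plxnb1 were lower in E+F+ than in E+F-, Efnb1 and Sema5a were higher, Efna1 was lower with IWR-1 in every population in all Sets, and Plxnb2 overlapped throughout.

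Among the semaphorins, the largest difference in favour of E+F+ was that of Sema5a, a membrane-bound semaphorin that carries thrombospondin repeats. It was at 10.4, 8.9 and 5.49 TPM in E+F+ DMSO and at 0.96, 1.66 and 2.3 TPM in E+F- DMSO. The groups did not overlap, and the log2 difference was 2.46 ± 0.38 (edgeR adjusted p = 0.000396). Sema3f, a secreted ligand that binds neuropilin-2, was at 17, 16 and 11.6 TPM in E+F+ and at 7.85, 7.01 and 9.2 TPM in E+F-, again without overlap (log2 difference 1.01 ± 0.19, edgeR adjusted p = 0.00167). The neuropilin-2 gene, Nrp2, went the opposite way, at 5.15, 3.38 and 3.85 TPM in E+F+ and 26.6, 36.4 and 66.6 TPM in E+F-, with a log2 difference of -3.22 ± 0.39 (edgeR adjusted p = 6.53e-05).

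Lower in E+F+ were 5 semaphorins. Sema4c, a ligand of plexin-B2, was at 19.7, 16.6 and 15.5 TPM in E+F+ and at 31.7, 29.6 and 42.2 TPM in E+F-. Its groups did not overlap, and the log2 difference was -0.87 ± 0.15 (edgeR adjusted p = 0.00071). Sema6a, a transmembrane ligand of A-type plexins, was at 1.47, 0.96 and 1.03 TPM in E+F+ and at 6.69, 5.63 and 17.4 TPM in E+F-, where Set 3 was far above the others. Its log2 difference was -2.95 ± 0.56 (edgeR adjusted p = 0.0016). The rest were low genes, with group means of at most 4 TPM: Sema7a (0.633 and 4 TPM), Sema4f (0.0967 and 1 TPM) and Sema4a (0.257 and 0.847 TPM). Sema6c, with the T-box letters in its window, was at 10.3, 12.7 and 7.71 TPM in E+F+ and 15.6, 17.6 and 18.5 TPM in E+F-, and did not pass under DMSO (log2 difference -0.67 ± 0.31, edgeR adjusted p = 0.125).

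The most abundant plexins did not pass the test. Plxnb2, the receptor of several class 4 semaphorins, was at 49.7, 52.1 and 37.5 TPM in E+F+ DMSO and at 40.2, 50.5 and 62.5 TPM in E+F- DMSO. The groups overlapped, with a 95% interval of the log2 difference from -0.40 to 0.38. Plxna1 gave an interval of -0.06 to 0.53. Plxnb1, the Sema4D receptor, was at 4.65, 5.61 and 2.74 TPM in E+F+ and at 11.2, 13 and 15.9 TPM in E+F-. Its groups did not overlap, and the log2 difference was -1.50 ± 0.30 (edgeR adjusted p = 0.00242). Plxnc1, the receptor of Sema7A, was low but ran against its ligand, at 1, 1.01 and 1.46 TPM in E+F+ and 0.31, 0.24 and 0.27 TPM in E+F- (log2 difference 2.19 ± 0.53, edgeR adjusted p = 0.00721). Plxna2 passed at 3.24 ± 0.679 TPM (SD, n = 3) in E+F+ against 10.2 ± 3.54 in E+F- (log2 difference -1.52 ± 0.48, edgeR adjusted p = 0.0294).

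Without both E+F- libraries of Set 3, 19 members again differed under DMSO, and 17 of the 19 were shared. Plxna2 (edgeR adjusted p = 0.0556) and Sema4a (0.117) were lost. Sema4a was also lost when E+F+ Set 2 (0.144), E+F+ Set 3 (0.106), E+F- Set 2 (0.121) or E+F- DMSO Set 3 (0.118) was left out, and Plxna2 when any library but E+F- Set 1 was left out (0.0529 to 0.101). Without all libraries of Set 2, 11 members differed, and Ephb4 (0.0695), Sema3f (0.0683), Sema7a (0.0826), Plxnc1 (0.0695), Efna4 (0.0799) and Epha4 (0.135) were among those lost. The marker sums given above moved with the same contrast, and their part in these differences was not tested.

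**Figure D3:**
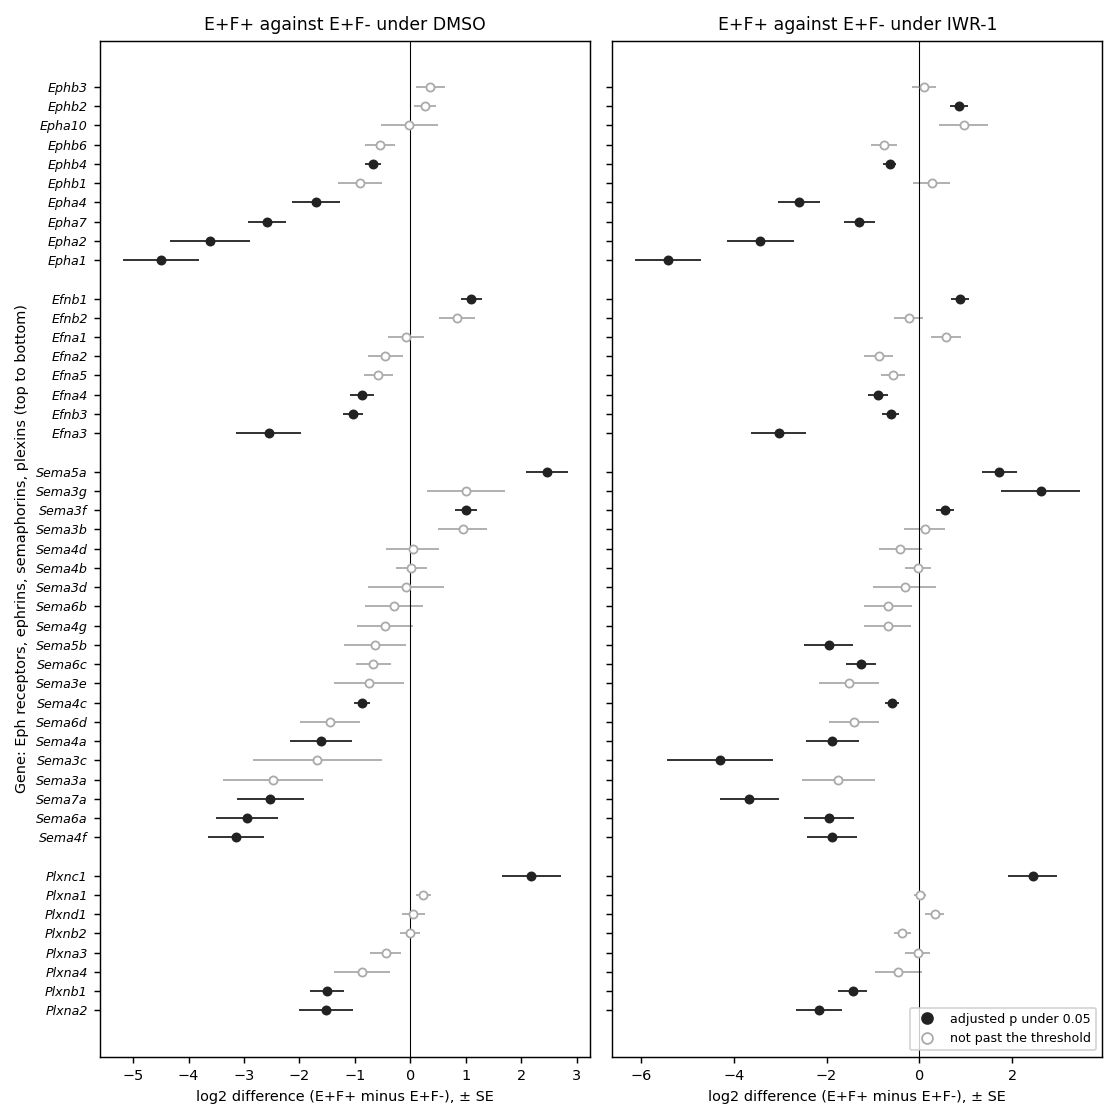
Log2 difference (E+F+ minus E+F-) with its SE for the 46 members tested, under DMSO (left) and IWR-1 (right), in the order of the DMSO values within each family; filled points passed an adjusted p of 0.05. Under DMSO 15 of 19 filled points lie below 0, and under IWR-1 18 of 24 do.

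The same populations were compared under IWR-1. Here 24 of the 46 members differed, 6 higher and 18 lower in E+F+, where 22.5% of all genes did (10.4% higher and 12.1% lower), and the median log2 difference was -0.628 over the members against -0.007 over all genes tested. By family, 6 of 10 Eph receptors, 4 of 8 ephrins, 11 of 20 semaphorins and 3 of 8 plexins passed. Epha1 was at 1.56, 1.52 and 1.37 TPM in E+F+ and at 54.6, 42.4 and 99 TPM in E+F- (log2 difference -5.42 ± 0.72, edgeR adjusted p = 0.000197). Efnb1 was at 46.7, 48.3 and 48.4 TPM in E+F+ and 29.1, 31.3 and 17.1 TPM in E+F- (log2 difference 0.87 ± 0.19, edgeR adjusted p = 0.0044). The groups of both genes did not overlap, but the Efnb1 call was lost without Set 1 (0.0606) and in a fit of only the 2 groups. Sema7a, a lipid-anchored semaphorin, was at 0.82, 0.35 and 0.59 TPM in E+F+ and at 7.91, 7.43 and 7.01 TPM in E+F-, with the E+F- libraries close to each other (log2 difference -3.66 ± 0.63, edgeR adjusted p = 0.00104). Sema5a was again higher in E+F+, at 6.63, 7.3 and 7.1 TPM against 2.47, 2.14 and 1.75 TPM (log2 difference 1.72 ± 0.37, edgeR adjusted p = 0.00428).

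Ephb2, an ephrin-B receptor, was at 13.7, 8.66 and 8.35 TPM in E+F+ IWR-1 and at 6.18, 5.99 and 4.75 TPM in E+F- IWR-1, and passed as the 1 Eph receptor that was higher in E+F+ (log2 difference 0.86 ± 0.19, edgeR adjusted p = 0.00559). Set 1 of E+F+ was the highest, and the groups did not overlap. Epha4 was at 2.32, 2.45 and 6 TPM in E+F+ and 29.1, 25.6 and 9.31 TPM in E+F- (log2 difference -2.60 ± 0.45, edgeR adjusted p = 0.00111). Efna3 was at 5.19, 9.99 and 4.45 TPM in E+F+ and 62.6, 71.4 and 25.6 TPM in E+F- (log2 difference -3.03 ± 0.60, edgeR adjusted p = 0.00234). For both, the Set 3 library of E+F- was the lowest of its group. In Epha2 it was the highest, at 2.29, 5.35 and 23.8 TPM in E+F- against 0.83, 0.94 and 0.99 TPM in E+F+ (log2 difference -3.42 ± 0.71, edgeR adjusted p = 0.0033), and without this library the difference was -2.10 (edgeR adjusted p = 0.0144). Sema3f stayed higher in E+F+, at 14.4, 15.8 and 12.2 TPM against 9.28, 9.36 and 10.4 TPM (log2 difference 0.56 ± 0.19, edgeR adjusted p = 0.0482), a call that was lost without any library but E+F+ Set 3 (0.087 to 0.168). Sema6c now passed, at 10.2, 7.72 and 7.15 TPM in E+F+ and 26.8, 18.3 and 13.4 TPM in E+F- (log2 difference -1.26 ± 0.31, edgeR adjusted p = 0.00997), but not without E+F- Set 1 (0.0502). Other calls that leaving out a single library ended were those of Efnb3, Epha7, Sema3c, Sema3g, Sema4a, Sema4f, Sema5b and Sema6a, and the Sema3c difference of -4.29 was -2.75 without E+F- Set 3. Without the whole of Set 1 or Set 2, 11 and 8 members differed, and the calls lost included those of Epha4 (0.0578 and 0.0509), Ephb2 (0.0714 without Set 1) and Sema5a (0.0979 without Set 2). These groups passed the same-Set check, although a Set block over all 18 libraries also covers pairs of groups that did not. With that block, 27 members differed (31% of all genes), with Ephb6 (-0.75 ± 0.18, edgeR adjusted p = 0.00586), Efna2 (-0.82 ± 0.24, 0.0177) and Sema6d (-1.44 ± 0.32, 0.00371) added. The lists of calls under DMSO and IWR-1 were not compared as lists, and the tests of the difference between them follow.

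The second question was what IWR-1 did within a population. As a check of the inhibitor, 10 Wnt target genes summed to 95.3 to 106 TPM in E+F+ DMSO and 53.4 to 60.1 in E+F+ IWR-1, to 405 to 463 and 148 to 249 in E+F-, and to 166 to 277 and 79.3 to 183 in unsorted cells. Axin2, a feedback inhibitor of the pathway, was at 66.8, 57.9 and 80 TPM in E+F- DMSO and 16.4, 22.4 and 21.2 TPM in E+F- IWR-1 (log2 difference -1.67 ± 0.23, edgeR adjusted p = 0.00285). In the same fit, 0 of these 10 genes passed in E+F+, 5 in E+F- and 1 in unsorted cells, all lower with IWR-1. The sums in unsorted cells overlapped. Of the 46 members, 0 passed between IWR-1 and DMSO in E+F+ (0% of all genes), 0 in E+F- (0.521% of all genes) and 0 in unsorted cells (0.094% of all genes). At an unadjusted edgeR p under 0.05 stood 2, 7 and 12 members, where 5.03%, 7.83% and 8.69% of all genes did. DESeq2 called 0, 1 and 0, and limma on log2(TPM + 1) 0, 2 and 0.

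DMSO and IWR-1 libraries of the same Set deviated together in every population. In E+F-, however, the deviations of DMSO Set 1 correlated more with IWR-1 Set 2 (r = 0.403) than with IWR-1 Set 1 (0.345). Mainly Set 3 stood apart there, and a pairing of Sets 1 and 2 was not clear. The treatment was also tested with the Set as a block within each population, a fit added after the data were seen. Then 9 members differed in E+F- (6.48% of all genes), 10 in unsorted cells (7.74% of all genes) and 0 in E+F+ (2.06% of all genes). With 1 block over all populations the counts were 2 in E+F- (1.49% of all genes), 0 in unsorted cells (0.868%) and 0 in E+F+ (0.0651%). The shares of the members called in E+F- and unsorted cells are to be read against these backgrounds. Marker sums of other cell types also differed between the treatments. In E+F- the neural sum was 1 to 2.87 TPM with DMSO and 3.02 to 14.1 with IWR-1 (1 of 4 genes tested was called higher), and the pluripotency sum was 94.2 to 508 and 537 to 1287 TPM (0 of 7 called). The cardiac sums overlapped (28.2 to 62.9 and 42.2 to 213 TPM, 0 of 7 called), as did those of the primitive streak (811 to 1583 and 776 to 832 TPM, with 2 of 9 genes called lower). In unsorted cells the neural sum was 1.6 to 3.89 TPM with DMSO and 4.31 to 23.6 with IWR-1, and the cardiac sum 34.3 to 47.7 and 73.6 to 151 TPM, with 0 genes of either list called. Their part in the members' changes was not tested.

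Efna1 fell with IWR-1 in E+F- and in unsorted cells. In E+F- it was at 38.7, 39.2 and 49.4 TPM with DMSO and at 25.3, 10.2 and 11.8 TPM with IWR-1, and in unsorted cells at 16.4, 16.3 and 11.4 TPM and 9.82, 6.7 and 6.97 TPM. Every IWR-1 library of these populations was below every DMSO library. The log2 difference was -1.33 ± 0.33 in E+F- without the block (edgeR adjusted p = 0.108) and -1.43 ± 0.23 with it (0.00393), and in unsorted cells -0.93 ± 0.34 (0.425) and -0.92 ± 0.24 (0.0412). In E+F+ it was at 34.1, 46.8 and 29.4 TPM with DMSO and 19.8, 33 and 16.8 TPM with IWR-1, lower in 3 of 3 Sets but not past the threshold (log2 difference -0.71 ± 0.22 with the block, edgeR adjusted p = 0.132). The size of the Efna1 change did not pass a test of difference between E+F+ and E+F- (0.72 ± 0.32, edgeR adjusted p = 0.354 with the block).

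With the block within each population, Efnb2 was the 1 member whose response to IWR-1 differed between E+F+ and E+F-. It passed in that 1 of 24 alternative runs only, and the fit takes E+F- Sets 1 and 2 as paired, which was not clear. In E+F- it was at 11.5, 15.5 and 14.8 TPM with DMSO and at 21.1, 21.5 and 27.1 TPM with IWR-1, higher in 3 of 3 Sets and without overlap. In E+F+ it was at 27, 24.3 and 17.8 TPM with DMSO and 25.1, 20.3 and 13.4 TPM with IWR-1, lower in 3 of 3 Sets but overlapping. In that fit the log2 difference was 0.83 ± 0.11 in E+F- (edgeR adjusted p = 0.00168) and -0.28 ± 0.11 in E+F+ (0.232), and the effect in E+F+ minus that in E+F- was -1.11 ± 0.16 (0.017), where 0.817% of all genes passed. No member passed the tests against the effect in unsorted cells (0% of all genes for E+F+ and 0.152% for E+F-). Without the block the Efnb2 difference was -1.07 ± 0.45 and did not pass, and 0 members passed any of the 3 tests of a difference of effects by edgeR (0.0289% of all genes for E+F+ against E+F-, 0% for the others). At an unadjusted p under 0.05 stood 3, 1 and 3 members (3.9%, 1.12% and 2.34% of all genes), and DESeq2 called 0 in each. Ephb4, the receptor of this ligand, was at 62.7, 67.5 and 78.1 TPM in E+F- DMSO and 61.7, 58.8 and 65.1 TPM in E+F- IWR-1.

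The other members that passed in E+F- with the block within each population follow, where 6.48% of all genes passed in either direction. Shares by direction are not given for that fit. None of these members passed in the fit without the block. Of 18 alternative runs, Epha1, Efnb3, Sema3c, Sema5b and Sema7a passed in 1 (this block), Sema6d in 2 and Sema4f in 3. Sema7a was at 2.97, 3.44 and 5.59 TPM with DMSO and 7.91, 7.43 and 7.01 TPM with IWR-1 (log2 difference 1.04 ± 0.28, edgeR adjusted p = 0.049 with the block), with no overlap. Sema5b, a relative of Sema5a, was low at 0.17, 0.4 and 0.17 TPM and rose to 1.06, 1.02 and 0.73 TPM (1.99 ± 0.44, edgeR adjusted p = 0.0204). Epha1 was higher in each Set, at 27.5, 33.1 and 77.5 TPM with DMSO and 54.6, 42.4 and 99 TPM with IWR-1, a difference of 0.65 ± 0.12 (edgeR adjusted p = 0.00949) that is smaller than the spread between Sets. Sema3c (0.12 and 0.523 TPM) and Sema6d (3.06 and 6.55 TPM) were also called higher. Efnb3 fell from 10.5, 14.4 and 11.7 TPM to 8.06, 8.29 and 7.46 TPM (-0.52 ± 0.13, edgeR adjusted p = 0.0347), and Sema4f, at 1 ± 0.265 TPM with DMSO (SD, n = 3), fell to 0.273 ± 0.157 (-1.85 ± 0.32, edgeR adjusted p = 0.00599). In Sema6d and Sema3c the Set 3 libraries ran apart from the others, at 3.45 and 2.95 TPM in Sema6d and at 0.28 and 1.24 TPM in Sema3c, whose other E+F- libraries were at no more than 0.2 TPM. In the fit without the block, the difference of Epha1 in E+F- (0.60) was 0.25 without the IWR-1 library of Set 3, 1.12 without the DMSO library of Set 3 and 0.37 without that of Set 1. That of Sema3c (2.20) was 0.66 and 3.57 without the IWR-1 and the DMSO library of Set 3.

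**Figure D4:**
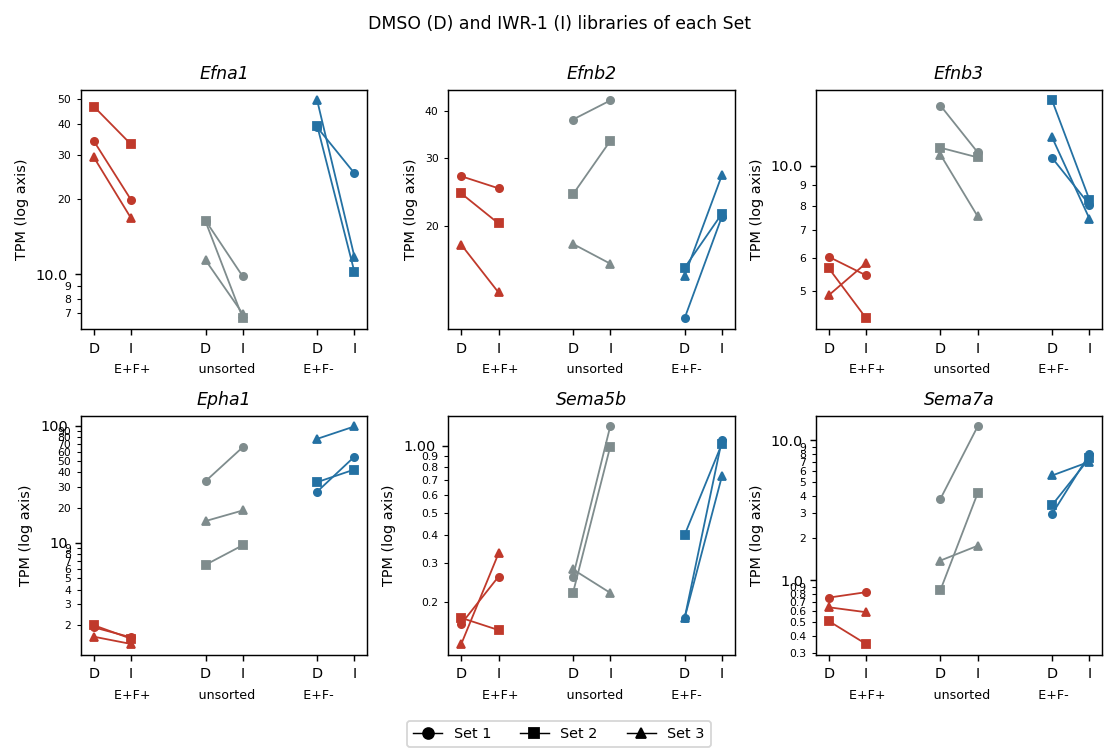
TPM (log axis) of 6 members with DMSO (D) and IWR-1 (I) in each population; each line joins the 2 libraries of 1 Set. The Efna1 lines fall in all 9 pairs, and the Efnb2 lines rise in the 3 E+F- pairs and fall in the 3 E+F+ pairs.

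In unsorted cells the block fit called Efna1 and Efnb1 lower and Epha1, Epha7, Ephb1, Plxnb1, Plxnc1, Sema3a, Sema3c and Sema7a higher. The share of all genes called in either direction was 7.74%, and shares by direction are not given. None of these members passed in the fit without the block. Efnb1 was at 36.1, 33.4 and 29.6 TPM with DMSO and 25, 22.2 and 23.3 TPM with IWR-1, without overlap (log2 difference -0.50 ± 0.13, edgeR adjusted p = 0.0339). Ephb1, another receptor of ephrin-B ligands, was low at 0.26, 0.18 and 0.22 TPM and higher with IWR-1 at 0.66, 0.92 and 0.35 TPM (1.53 ± 0.35, edgeR adjusted p = 0.0246). The Set 1 library of the IWR-1 group carried several of the highest values, such as 65.8 TPM of Epha1, 12.5 TPM of Sema7a and 6.37 TPM of Sema3a. It also carried the highest pluripotency sum of the unsorted libraries (1019 TPM) and the highest neural sum (23.6 TPM, against 1.6 to 4.32 in the others). In the fit without the block, leaving this library out turned the difference of Epha1 from 0.75 to -0.33 and that of Plxnb1 from 0.35 to -0.0468. Those of Sema3a and Sema7a went from 2.47 to 1.10 and from 1.61 to 0.65. That of Plxnc1 was 1.16, and 2.19 without the DMSO library of Set 3 or 0.73 without the IWR-1 library of Set 3.

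The sorted populations were also set against unsorted DMSO cells, which serve as the control of both contrasts. In E+F+, 6 of 46 members differed, 2 higher (Efnb1 and Efna1) and 4 lower (Efnb3, Epha2, Epha1 and Sema4f), where 10.6% of all genes did (4.7% higher and 5.85% lower). A fit with the Set as 1 block over all 18 libraries also covers pairs of groups that did not pass the same-Set check. This pair passed it narrowly (lowest r 0.1002 against a threshold of 0.1). Unsorted DMSO Set 1, however, correlated more with E+F+ DMSO Set 2 (r = 0.129) than with E+F+ DMSO Set 1 (0.1002). A pairing of Sets 1 and 2 was thus not clear here either. With this Set block 13 members differed (20.3% of all genes), the 6 above included. The added calls were Ephb1, Plxnc1, Sema5a and Sema6c, higher in E+F+, and Efna4, Epha7 and Sema3e, lower, with edgeR adjusted p between 0.0101 and 0.0382. Efnb1 was at 36.1, 33.4 and 29.6 TPM in unsorted DMSO, all below the E+F+ DMSO libraries (log2 difference 0.86 ± 0.19, edgeR adjusted p = 0.0133). Epha2 was at 14.1, 5.24 and 9.48 TPM in unsorted cells, where all E+F+ libraries were below 1 TPM (-3.87 ± 0.73, edgeR adjusted p = 0.00732). Epha1 was at 33.7, 6.5 and 15.4 TPM in unsorted cells, all above E+F+ (-3.21 ± 0.66, edgeR adjusted p = 0.00969), and Efnb3 at 14, 11.1 and 10.6 TPM, also all above E+F+ (-1.01 ± 0.19, edgeR adjusted p = 0.00612). The Efnb1 call was lost without E+F+ Set 1 (0.0518), and those of Efna1 and Sema4f without each of 3 single libraries. Without the whole of Set 1 or of Set 2, each of the 6 lost its call.

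In E+F-, 9 members differed from unsorted DMSO cells, 7 higher and 2 lower, where 9.48% of all genes did (4.56% higher and 4.92% lower). With the Set as a block, which the same-Set check did not allow here, the count was 15 (20.5% of all genes). Ephb4 was at 48.7, 34 and 38.7 TPM in unsorted cells, below every E+F- library (log2 difference 0.76 ± 0.14, edgeR adjusted p = 0.00567). Sema4c, at 21, 14.7 and 22.2 TPM in unsorted cells, was likewise below every E+F- library (0.82 ± 0.15, edgeR adjusted p = 0.00485), and so was Sema6c, at 8.05, 5.67 and 6.07 TPM (1.39 ± 0.32, edgeR adjusted p = 0.0143). Efna1 was higher than in unsorted cells in both sorted populations, by 1.41 ± 0.33 in E+F+ (edgeR adjusted p = 0.0178) and 1.49 ± 0.33 in E+F- (0.0131), and these values share their control libraries. The other calls were Epha7, Ephb1 and Sema6a, higher, and Sema3f and Sema5a, lower. Sema6a was at 3.58, 1 and 3.37 TPM in unsorted cells and its call (1.88 ± 0.54, edgeR adjusted p = 0.0396) was lost without any 1 of the 6 libraries, with a difference of 1.29 and an adjusted p of 0.092 without both E+F- libraries of Set 3. Sema3f was at 17.1, 13.8 and 12.6 TPM in unsorted cells, above every E+F- library (-0.88 ± 0.19, edgeR adjusted p = 0.0124), but not past the threshold without E+F- Set 2 (0.0581). Efna1 was lost without unsorted Set 3 (0.0557), Sema6c without unsorted Set 2 or Set 3 (0.0714 and 0.0547), and Sema5a without each of 4 libraries. Each of the 9 lost its call without the whole of Set 2.

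The partners of these families were read from lists of co-receptors and signalling proteins. In E+F+ against E+F- under DMSO, where 12.8% of all genes were higher and 13.8% lower, the counts in these small lists are given as a description. Of 9 semaphorin co-receptors tested, 0 were higher and 4 lower in E+F+ than in E+F- under DMSO: Nrp2 (above), L1cam, Nrcam and Itga1. Nrp1, the neuropilin of class 3 ligands and of vascular growth factor, was at 80.1, 63.8 and 29.4 TPM in E+F+ and 49.9, 46.8 and 25.9 TPM in E+F- and did not pass (log2 difference 0.59 ± 0.47, edgeR adjusted p = 0.379). Nrp2 was lower with IWR-1 in each Set of E+F-, at 7.25, 11.1 and 19.4 TPM, but missed the threshold (log2 difference -1.66 ± 0.37, edgeR adjusted p = 0.0643). Of 21 proteins that signal below Ephs and ephrins, 5 were higher and 4 lower in E+F+ under DMSO. The exchange factor gene Kalrn was the largest of the higher ones (2.92 ± 0.38, edgeR adjusted p = 0.000113), and Vav2, which links Eph receptors to Rac, was higher by less (0.79 ± 0.10, edgeR adjusted p = 1e-04). Of 22 proteins that signal below plexins, 4 were higher and 3 lower, and Rnd2, a GTPase that binds plexins, had the largest difference (4.32 ± 0.53, edgeR adjusted p = 7.42e-05). Of the other guidance systems, 3 of 10 Slit and Robo genes were higher and 3 lower, and 2 of 11 netrin and RGM genes were higher and 5 lower. None of these lists had a member past the threshold between IWR-1 and DMSO in E+F+, E+F- or unsorted cells in the fit without the block (edgeR).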

How the data were processed

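RNA from 18 samples was made into unstranded TruSeq v2 libraries and sequenced as single 51 bp reads. Per the labels, the authors used CASAVA 1.8.2, aligned reads with Bowtie 0.12.9 to RefSeq NM_ transcripts (mm10) and estimated expression with RSEM 1.2.3. The deposited values are RSEM expected counts (20321 rows) and TPM (20308 rows), 1 column per library. Reads shared by similar family members were divided by RSEM, and without strand, reads of antisense or overlapping genes cannot be told apart. The members and lists were chosen with earlier results of these data known. Expected counts were rounded to whole numbers. The test was the quasi-likelihood test of edgeR 4.0.16 in R 4.3.3 (TMM normalisation, filterByExpr by group, 13826 genes, 1 coefficient per group over 18 libraries, Benjamini-Hochberg threshold 0.05), for 7 comparisons of groups and 3 differences of the IWR-1 effect. The study calls its RNA-seq samples independent biological samples, and p-values measure the spread between them. Depth was 19725500 to 26649631 counts, with TMM factors of 0.949 to 1.08. No 2 replicates agreed within sampling noise. TPM levels are as deposited. Values in every library are given for members past the threshold with a mean of at least 5 TPM in the higher group (by adjusted p, up to 8 in each direction between the sorted populations with DMSO, up to 5 otherwise), for members called in a difference of effects and for the most abundant member of each family. Other members given with values were chosen after their values were seen. Pairing came from the Set numbers in the labels and was checked by the correlation of deviations from group means: all 3 same-Set correlations exceeded 0.1 for IWR-1 against DMSO in each population (0.34 to 0.752), for E+F+ against E+F- under IWR-1 (0.191 to 0.291) and E+F+ against unsorted cells under DMSO (0.1 to 0.367). They did not between the sorted populations under DMSO (lowest 0.0977) or E+F- against unsorted cells (lowest -0.0082). Within E+F-, DMSO Set 1 and IWR-1 Set 2, which are different Sets, correlated at 0.403. Under DMSO, E+F+ Set 2 and unsorted Set 1 correlated at 0.129. Except in the fit within each population, the block was 1 Set effect shared by all 18 libraries. It thus also covered the pairs of groups that did not pass. Alternatives were DESeq2 1.42.0, RLE factors, no filter, only the groups compared, the Set as a block, limma 3.58.1 on log2(TPM + 1) and log2(TPM + 0.1), and leaving out each library and each Set. Promoter windows and gene coordinates come from RefSeq and GENCODE M21.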

Additional observations from a re-analysis of the deposited data

How the results depend on the processing

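Of the 19 members called between E+F+ and E+F- under DMSO, 11 passed in every alternative run, and of the 24 called under IWR-1, 5 did. None of these 43 results changed direction. Leaving out libraries or whole Sets gave 11 to 21 members called under DMSO and 8 to 22 under IWR-1 (24 without both E+F- libraries of Set 3), 0 to 9 for E+F+ and 0 to 11 for E+F- against unsorted cells, 0 to 1 for IWR-1 in E+F-, 0 to 2 in unsorted cells, and 0 to 0 for IWR-1 in E+F+ and for the 3 differences of effects. The lowest counts between populations came without Set 2, or without Set 1 or 2 for E+F+ against unsorted cells. Fewer libraries estimate the spread whenever a Set is left out. Leaving out Set 3 gave the highest count between the sorted populations with DMSO (21) and for E+F+ against unsorted cells (9). The cause of the low counts was not tested. For IWR-1 in E+F-, DESeq2 called 1 member, limma on log2(TPM + 1) 2 and limma on log2(TPM + 0.1) 1. With the Set as a block over all populations, 2 members were called for IWR-1 in E+F-, 13 for E+F+ against unsorted cells (also 13 by DESeq2) and 15 for E+F- against unsorted cells, whose numbers did not pair the samples. With the block within each population, 9 were called for IWR-1 in E+F-, 10 in unsorted cells and 1 in the difference of effects between E+F+ and E+F-. The block changed no other count by over 1.5 times. Without unsorted IWR-1 Set 1, the IWR-1 difference in unsorted cells was -0.33 for Epha1 and -0.0468 for Plxnb1 (which ran up to 0.65 without unsorted DMSO Set 1). On the TPM scale the median of all genes shifted by up to -0.12 (log2) for E+F+ against E+F- under DMSO. Members below 1 TPM carry few reads, and their fold changes are the least certain.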
